A study of Mus musculus with 96 samples.

Results

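The collagen chain genes are the protein-coding genes whose symbol is Col, a number, a and a number with nothing after it, as in Col1a1, and they encode the alpha chains from which collagens are assembled. The mouse annotation used for symbols and positions (GENCODE M21 on GRCm38) holds 44 such genes, and 43 of them were among the 19918 genes of the count tables analysed here; Col10a1 was not analysed here. RNA had been sequenced from tissue punches of 2 regions in each of 48 mice, the PFC (prefrontal cortex) and the NAc (nucleus accumbens), which gave 96 libraries. The mice were of the FCG model, a cross of core genotypes in which the type of gonad and the sex chromosomes are inherited apart. XX and XY- mice have ovaries, and XXSry and XY-Sry mice have testes; Y- is a Y chromosome that lacks the testis-determining gene Sry, which XXSry and XY-Sry mice carry as a transgene on an autosome. Each genotype had a Control and a Stress group, in which Stress stands for 3 sessions of restraint of 1 hour on alternating days over 6 days. Control and Stress groups held 5 and 6 XX, 6 and 6 XXSry, 7 and 6 XY-, and 6 and 6 XY-Sry mice. All groups were thus of the same cross, and the animals belonged to 3 cohorts of 23, 12 and 13. Most animals of cohort 2 were controls and most of cohort 3 were stressed. Some groups had no animal in cohort 2 or in cohort 3, so stress and cohort were partly confounded. Any comparison of testes with ovaries also compares mice with and without the Sry transgene. Ages are not given in the labels used here.

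Collagens are secreted or membrane-bound proteins in which alpha chains, alike or different, wind around each other in a helix before they form larger structures outside the cell. In most organs the fibrillar collagens carry load, whereas the brain's parenchyma holds little fibrous collagen and keeps most of its collagen in the basement membranes of vessels and pia and in the fibroblast layers of the meninges. Neurons and glia also make some collagens, among them membrane-spanning and fibril-associated chains that act at synapses and in axon targeting.

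Deposited counts summed to 67.6 to 104 M per PFC library and 45.9 to 120.8 M per NAc library, and the 43 collagen chain genes together took 0.0468% and 0.0633% of them. Levels are given as CPM (counts scaled to a library of 1 M), normalized by the trimmed mean of M values over all 96 libraries. Differences are log2 fold changes from edgeR's quasi-likelihood test with Benjamini-Hochberg adjustment over all genes tested (19292 in PFC, 19684 in NAc and 19918 in the comparison of regions), and a gene is called when its adjusted p is below 0.05. All 43 collagen chain genes passed the filter on low counts in both regions. Collagen transcripts had a median GC content of 55.2%, against 49.3% over all genes, and the dependence of counts on GC content varied more among NAc than among PFC libraries (SD of the slope 0.122 and 0.0507).

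Per kilobase of exons, which allows different genes to be compared, Col6a1 had the highest mean level of the family in both regions, with 10.03 ± 2.72 CPM per kb in PFC and 61.03 ± 17 in NAc (SD, n = 48 each). Col6a1 encodes a chain of collagen VI, which forms beaded microfilaments around cells. In the PFC it was followed by Col4a2 (8.85 ± 1.14), Col25a1 (6.09 ± 0.750), Col4a1 (5.57 ± 0.648) and Col19a1 (4.96 ± 0.571), and then by Col6a2, Col16a1, Col12a1, Col11a2 and Col5a1 at 2.45 to 1.72 CPM per kb. The NAc order after Col6a1 was Col25a1 (7.05 ± 1.09), Col4a2 (5.24 ± 1.13), Col4a1 (3.38 ± 0.630) and Col11a1 (2.67 ± 1.02), and then Col9a3, Col11a2, Col6a2, Col23a1 and Col16a1 at 2.17 to 1.54. Among the 10 highest, neighbours differed by more than the larger of their SDs only between Col4a2 and Col25a1, Col19a1 and Col6a2, and Col12a1 and Col11a2 in PFC, and between Col6a1, Col25a1, Col4a2 and Col4a1 in NAc; the order of the other neighbours is not separated from the spread over libraries. Col4a1 and Col4a2 are the chains of the basement membrane network found around vessels, and Col25a1 is a membrane-spanning collagen made by neurons.

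At the low end stood Col4a3 and Col4a4, the chains best known from the kidney's filter, at 0.0459 and 0.0525 CPM per kb in PFC and 0.0458 and 0.0524 in NAc. Other low PFC levels were those of Col6a5 (0.0592), Col6a6 (0.0622), Col2a1 (0.0650) and Col9a1 (0.125), the last a chain of cartilage collagen IX. In the NAc the lowest of all was Col13a1 (0.0394), with Col6a6 (0.0593), Col9a1 (0.0815) and Col4a6 (0.0825) close by. The 43 levels summed to 468 ± 42.04 CPM in PFC and 633 ± 115 CPM in NAc (SD, n = 48). Beaded filament chains summed to 71.4 ± 15.1 CPM in PFC and 307 ± 78.3 CPM in NAc, a wider gap than that between the sums of the whole family. Col6a1 made up most of the beaded filament sum in each region, with a mean of 43.9 CPM in PFC and 267 CPM in NAc. Its means differed by more than the family sums did, so the sum of the other members was lower in NAc. Basement membrane chains were lower in NAc, with 106 ± 12.2 CPM in PFC and 65.3 ± 12.3 CPM in NAc. The fibril-associated collagens were lower too, with 103 ± 9.14 CPM in PFC and 58.2 ± 10.6 CPM in NAc.

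**Figure D1:**
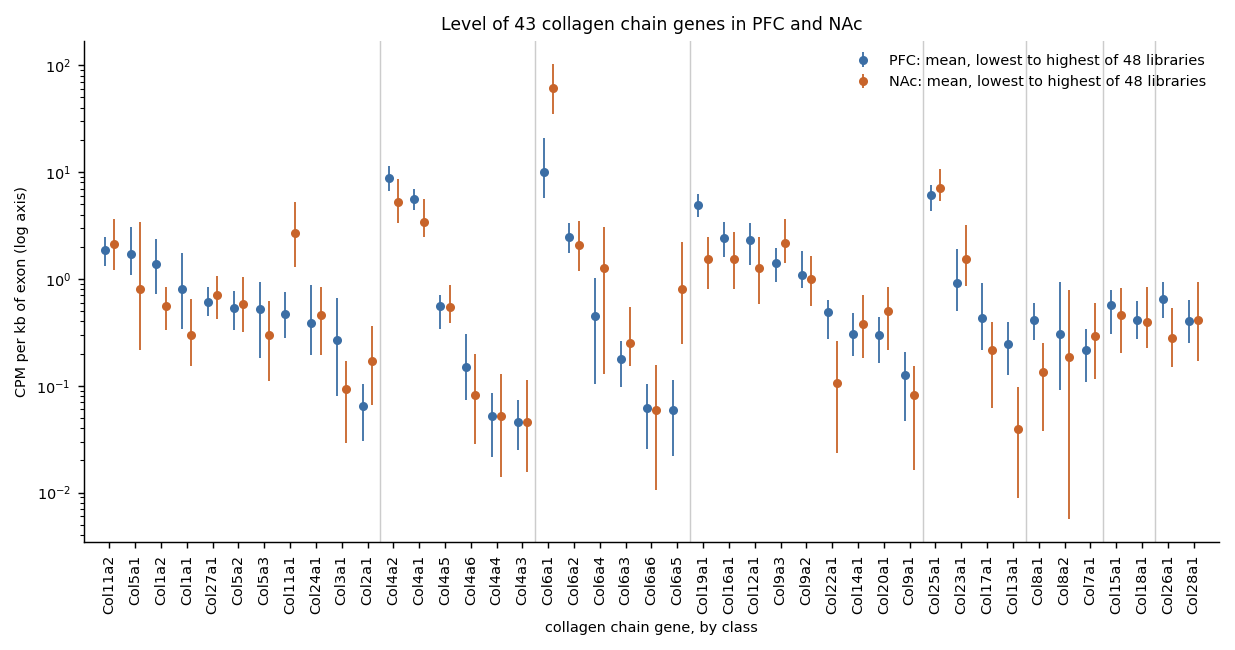
Mean level of each of the 43 collagen chain genes in CPM per kb of exons, on a log axis, for the PFC and the NAc. Bars run from the lowest to the highest of 48 libraries. Col6a1 stands highest in both regions, at 10.03 and 61.03 CPM per kb, and Col13a1 lowest in NAc, at 0.0394.

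Between the regions of the same animals, 36 of the 43 collagen chain genes differed (83.7%; 16 higher and 20 lower in NAc than in PFC). Over all genes 85.9% differed (44% higher and 41.9% lower), so the count of calls lay near the background; at an unadjusted p below 0.05 it was also 36, against 86.4%. A difference of 2-fold or more was found for 15 collagen chain genes (34.9%; 5 higher, 10 lower), against 20.3% of all genes. The median log2 difference was -0.11 over the 43 and 0.02 over all genes. Every NAc library lay above every PFC library for 3 of the 43 (Col6a1, Col6a5 and Col11a1; 7.62% of all genes) and below for 4 (Col13a1, Col19a1, Col22a1 and Col8a1; 8.79%). In tissue punches such as these, fewer cells of a type and less RNA per cell cannot be told apart.

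For 2 members called higher and 2 called lower in NAc, chosen after their values were seen, the 250 bases before the annotated start are shown from RefSeq (GRCm38.p6), read 5′ to 3′ on the gene's strand, as examples of how start regions vary in composition. Col6a5 and Col13a1 had the largest log2 differences of the family in each direction (3.66 and -2.62). Col11a1 and Col3a1 were not next in order. Col6a1 was higher in NAc by more than Col11a1, and Col22a1, Col19a1 and Col8a1 were lower by more than Col3a1. Capitals mark matches to 3 short motifs, searched on both strands. These are the TATA box, written TATAAA, the box known by its letters CCAAT, and the GC box, written GGGCGG. Col6a5 starts after chr9:105960644-105960893 (minus strand), Col11a1 after chr3:114030290-114030539 (plus), Col13a1 after chr10:61979109-61979358 (minus) and Col3a1 after chr1:45311288-45311537 (plus).
Col6a5: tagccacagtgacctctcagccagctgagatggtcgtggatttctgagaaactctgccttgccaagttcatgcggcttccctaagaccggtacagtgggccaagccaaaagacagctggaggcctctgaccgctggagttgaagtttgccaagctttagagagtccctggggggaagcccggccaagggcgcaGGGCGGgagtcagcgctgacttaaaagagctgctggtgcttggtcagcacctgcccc
Col11a1: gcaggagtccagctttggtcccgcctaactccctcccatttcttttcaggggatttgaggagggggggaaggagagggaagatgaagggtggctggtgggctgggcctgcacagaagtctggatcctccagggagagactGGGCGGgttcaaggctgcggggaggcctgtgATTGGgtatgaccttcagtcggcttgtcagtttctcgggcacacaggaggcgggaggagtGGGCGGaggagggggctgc
Col13a1: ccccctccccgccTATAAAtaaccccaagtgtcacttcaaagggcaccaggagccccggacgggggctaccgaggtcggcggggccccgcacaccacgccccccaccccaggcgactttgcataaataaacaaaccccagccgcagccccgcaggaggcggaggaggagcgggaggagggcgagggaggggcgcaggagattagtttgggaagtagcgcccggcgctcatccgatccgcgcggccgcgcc
Col3a1: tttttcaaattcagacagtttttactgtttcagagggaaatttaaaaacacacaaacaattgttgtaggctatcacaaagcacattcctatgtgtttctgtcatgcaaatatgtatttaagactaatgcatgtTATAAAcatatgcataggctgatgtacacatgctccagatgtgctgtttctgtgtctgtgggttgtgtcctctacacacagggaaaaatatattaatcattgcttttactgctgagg
The Col6a5 window holds 1 GC box. The Col11a1 window holds 2 GC boxes and 1 CCAAT on the reverse strand, printed as ATTGG. Col13a1 and Col3a1 windows each hold 1 match to TATAAA, and their GC content is 68.8% and 35.2%. The Col13a1 match lies near the end of the window farthest from the annotated start, and the Col3a1 match near the window's middle. Among 37 windows of the 34 collagen chain genes found in the RefSeq table, 4 held TATAAA (10.8%), 13 CCAAT (35.1%) and 22 GGGCGG (59.5%). The shares over all 32851 windows of that length were 12.4%, 33.9% and 32.7%, and no motif matches overlapped each other in the windows printed. Matches describe letters in these windows and are not evidence of binding.

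Collagen VI showed the widest gap between regions and between its own chains. Col6a1 read 25.3 to 90.7 (median 42.5) CPM across PFC libraries and 152 to 454 (median 259) CPM across NAc libraries, and the ranges did not touch. Its log2 difference, NAc minus PFC, was 2.60 ± 0.07 (SE, adjusted p = 1.53e-30), with a ratio of means of 6.09. Col6a5, a chain that can take the place of Col6a3 beside Col6a1 and Col6a2, read 0.206 to 1.06 (median 0.540) CPM across PFC libraries and 2.32 to 20.7 (median 6.57) CPM across NAc libraries, again without overlap, and differed by 3.66 ± 0.14 (SE, adjusted p = 1.20e-25). Col6a4, a chain of the same kind, read 0.885 to 8.78 (median 3.63) CPM across PFC libraries and 1.099 to 25.8 (median 10.4) CPM across NAc libraries, with a difference of 1.43 ± 0.11 (SE, adjusted p = 4.07e-15). It was higher in NAc in 46 of 48 animals although the ranges overlapped. Col6a3, the usual partner of Col6a1 and Col6a2, was higher in NAc by 0.53 ± 0.08 (SE, adjusted p = 1.85e-07). Col6a2, the obligate partner of Col6a1, read 14.4 to 27.96 (median 19.9) CPM across PFC libraries and 9.89 to 29.2 (median 16.6) CPM across NAc libraries, ranges that lay largely on top of each other. Its difference was -0.22 ± 0.06 (SE, adjusted p = 0.00162), lower in NAc. Per kilobase, Col6a1 thus stood at 10.03 and Col6a2 at 2.45 CPM in PFC, and at 61.03 and 2.09 in NAc. Col6a6 was not called (-0.12 ± 0.12 (SE, adjusted p = 0.351)). Col6a4, Col6a5 and Col6a6 lie in tandem on chromosome 9, 27917 and 28810 bases apart, and Col6a1 and Col6a2 in tandem on chromosome 10.

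All 11 fibrillar chains were called between regions, 6 higher and 5 lower in NAc, with chains of collagen V in both directions. Chains of the cartilage type fibrils were higher: Col11a1 read 3.58 to 9.60 (median 6.02) CPM across PFC libraries and 16.5 to 67.4 (median 31.7) CPM across NAc libraries, with every NAc library above every PFC library, and its difference was 2.46 ± 0.09 (SE, adjusted p = 3.31e-26). Col2a1, the main fibrillar chain of cartilage, read 0.283 to 0.965 (median 0.584) CPM across PFC libraries and 0.611 to 3.36 (median 1.57) CPM across NAc libraries and differed by 1.37 ± 0.08 (SE, adjusted p = 2.91e-20); the ranges overlapped, yet all 48 animals had the higher value in NAc. Col11a2, which joins Col11a1 in collagen XI, differed by 0.21 ± 0.05 (SE, adjusted p = 0.000176). The chains of collagens I and III, the main products of fibroblasts, were lower in NAc in all 48 animals. Col1a1 read 2.21 to 11.4 (median 4.88) CPM across PFC libraries and 1.01 to 4.27 (median 1.98) CPM across NAc libraries. Col1a2 stood at 8.89 to 29.2 (median 16.8) CPM across PFC libraries and 4.11 to 10.3 (median 6.57) CPM across NAc libraries, and Col3a1 at 0.789 to 6.56 (median 2.33) CPM across PFC libraries and 0.288 to 1.67 (median 0.942) CPM across NAc libraries. Their differences were -1.32 ± 0.09 (SE, adjusted p = 4.81e-18), -1.28 ± 0.06 (SE, adjusted p = 1.86e-24) and -1.43 ± 0.11 (SE, adjusted p = 3.30e-16), and the ranges of the 2 regions overlapped, least for Col1a2. Col5a1, whose product starts the assembly of type I fibrils, differed by -1.31 ± 0.13 (SE, adjusted p = 2.21e-12) and was lower in 45 of 48 animals. Its partner Col5a2 differed by 0.15 ± 0.06 (SE, adjusted p = 0.0176), Col5a3 by -0.82 ± 0.10 (SE, adjusted p = 1.32e-09), Col24a1 by 0.28 ± 0.09 (SE, adjusted p = 0.00454) and Col27a1 by 0.19 ± 0.05 (SE, adjusted p = 0.000689).

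**Figure D2:**
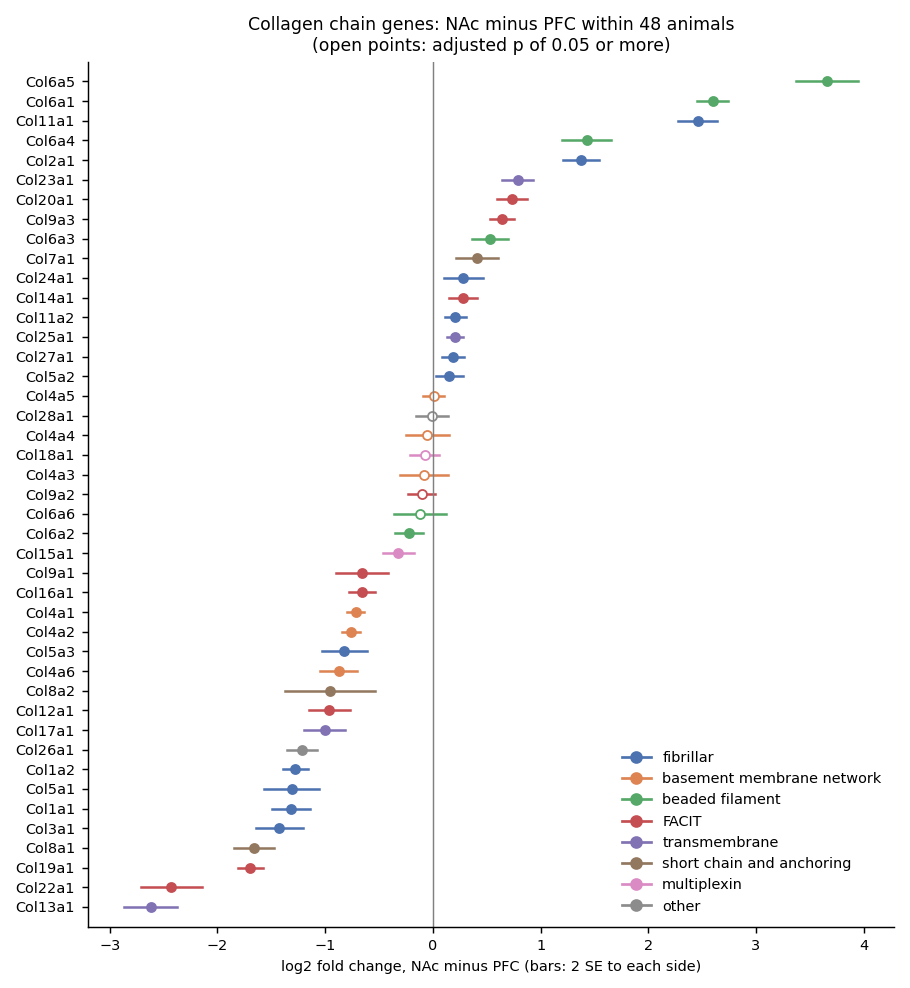
Log2 fold change, NAc minus PFC, of the 43 collagen chain genes in order of size, with bars of 2 SE, from the fit with each animal as a block. Points to the right of 0 are higher in NAc; Col6a5 (3.66), Col6a1 (2.60) and Col11a1 (2.46) lie farthest right and Col13a1 (-2.62) and Col22a1 (-2.43) farthest left.

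Basement membrane chains were lower in NAc or not called. Col4a1 and Col4a2, the pair present around every vessel, differed by -0.72 ± 0.04 (SE, adjusted p = 7.52e-22) and -0.76 ± 0.04 (SE, adjusted p = 1.07e-20) and were lower in NAc in all 48 animals. Col4a2 read 44.3 to 75.04 (median 59.02) CPM across PFC libraries and 22.2 to 56.4 (median 33.6) CPM across NAc libraries. Col4a6 differed by -0.87 ± 0.09 (SE, adjusted p = 5.36e-13), while Col4a5 (0.01), Col4a3 (-0.08) and Col4a4 (-0.05) were not called. The related multiplexins, which sit in vessel basement membranes, gave -0.32 ± 0.07 (SE, adjusted p = 8.41e-05) for Col15a1 and -0.07 ± 0.07 (SE, adjusted p = 0.304) for Col18a1, the source of endostatin, which was not called.

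Among the 9 fibril-associated collagens with interrupted helices (FACIT), 3 were higher and 5 lower in NAc. Col19a1, which interneurons of the brain express, read 26.3 to 43.2 (median 33.99) CPM across PFC libraries and 5.56 to 17 (median 10.3) CPM across NAc libraries, and Col22a1, a collagen of tissue junctions, read 2.52 to 5.78 (median 4.53) CPM across PFC libraries and 0.217 to 2.43 (median 0.689) CPM across NAc libraries. Neither gene's ranges met between regions, and the differences were -1.69 ± 0.06 (SE, adjusted p = 1.54e-27) and -2.43 ± 0.14 (SE, adjusted p = 9.92e-20). Lower values were also measured for Col12a1 (-0.96), Col9a1 (-0.66) and Col16a1 (-0.66), and higher ones for Col20a1 (0.74), Col9a3 (0.64) and Col14a1 (0.28), all called. Of the collagen IX chains, which form a mixed trimer, Col9a1 was therefore lower, Col9a3 higher and Col9a2 not called (-0.11).

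The 4 membrane-spanning collagens divided evenly. Col13a1, which organises the synapse between nerve and muscle, read 0.578 to 1.83 (median 1.08) CPM across PFC libraries and 0.0411 to 0.451 (median 0.161) CPM across NAc libraries, the largest fall in the family at -2.62 ± 0.12 (SE, adjusted p = 1.73e-24), and the ranges did not meet. Col17a1, a chain of the hemidesmosomes that anchor epithelia, differed by -1.01 ± 0.10 (SE, adjusted p = 2.77e-13), and it was lower in 47 of 48 animals. Col23a1 was higher by 0.79 ± 0.07 (SE, adjusted p = 1.43e-13) and Col25a1, the most abundant of the 4, by 0.20 ± 0.04 (SE, adjusted p = 3.56e-06), at 56.3 to 97.6 (median 80.2) CPM across PFC libraries and 69.4 to 138 (median 90.1) CPM across NAc libraries. The Col25a1 ranges overlapped in part, with the lowest values in PFC and the highest in NAc.

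Col8a1 and Col8a2, the chains of the short-chain collagen VIII of vessel walls, were both lower in NAc. Col8a1 read 2.09 to 4.69 (median 3.17) CPM across PFC libraries and 0.294 to 1.95 (median 1.09) CPM across NAc libraries, without overlap, and differed by -1.66 ± 0.09 (SE, adjusted p = 2.59e-21). Col8a2 differed by -0.96 ± 0.21 (SE, adjusted p = 6.11e-05) and spread widely over NAc libraries, from 0.0253 to 3.55 CPM; the lowest of these values rests on 2 counts. Col7a1, the anchoring fibril chain, was higher in NAc by 0.41 ± 0.10 (SE, adjusted p = 0.000221), but was not called within cohort 1 (0.20 (adjusted p = 0.152)) or cohort 2 (0.34 (adjusted p = 0.0623)). Col26a1 was lower in NAc in all 48 animals, with a difference of -1.21 ± 0.07 (SE, adjusted p = 9.86e-21), and Col28a1 was not called (-0.01).

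Markers of other cells moved between the regions at the same time. All 16 listed markers of meninges and fibroblasts were lower in NAc (median log2 difference -2.16; summed level 128 ± 41.8 CPM in PFC and 42.4 ± 6.27 in NAc), with none at 0 over the libraries of either region. All 8 measured markers of ependyma, the lining of the ventricles, were higher in NAc (median 1.73), as were 10 of 10 of oligodendrocytes and 13 of 13 of striatal projection neurons. Cortical excitatory neuron markers were lower for 10 of 12, pericyte and smooth muscle markers for 10 of 12, and endothelial markers for 9 of 12. What part these had in the differences of collagen chain genes was not tested. Every punch of one region was also dissected and handled as that region, so region and handling cannot be told apart.

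Stress against control addressed whether restraint changed collagen expression, and no collagen chain gene was called in either region by edgeR, DESeq2 or limma-voom. Of all genes, 0% were called by edgeR in PFC and 0% in NAc. At an unadjusted p below 0.05 stood 5 of 43 in PFC (11.6%, against 5.73% of all genes; 5 by DESeq2 and 5 by limma-voom) and 3 of 43 in NAc (6.98%, against 4.59%; 4 and 3). Fitted differences ran from -0.27 to 0.28 in PFC and from -0.29 to 0.48 in NAc, with a median SE of 0.10 and 0.14. In the NAc 30 of 43 estimates were above 0 (median 0.09, against 0.002 over all genes), and in PFC 23 of 43. All 10 oligodendrocyte markers were above 0 in both regions (median 0.13 in PFC and 0.14 in NAc). Endothelial markers were below 0 for 10 of 12 in PFC and 7 of 12 in NAc, and astrocyte markers for 10 of 11 and 9 of 11. None of these markers was called, and their part in the collagen estimates was not tested.

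The smallest p-values for stress in PFC belonged to Col6a1, Col5a1 and Col6a6. Ranges and medians in this paragraph are pooled over cohorts, in which treatment was not balanced. The fitted differences are adjusted for cohort. Col6a1 read 25.3 to 59.3 (median 38.99) CPM in 24 control libraries and 30.2 to 90.7 (median 45.9) CPM in 24 stressed libraries, a difference of 0.28 ± 0.12 (SE, adjusted p = 0.768). Col5a1 read 9.24 to 17.3 (median 13.1) CPM in control and 10.3 to 25.9 (median 15.3) CPM in stressed libraries, a difference of 0.25 ± 0.10 (SE, adjusted p = 0.768). The higher medians came with ranges that overlapped over most of their length, and Col6a6 gave -0.27 ± 0.12 (SE, adjusted p = 0.798). In the NAc the collagen XI chain Col11a2 read 8.31 to 17.6 (median 13.2) CPM in control and 10.5 to 25.1 (median 16.03) CPM in stressed libraries, a difference of 0.29 ± 0.10 (SE, adjusted p = 0.997). Col7a1 read 1.20 to 4.65 (median 2.45) CPM in control and 1.49 to 6.14 (median 3.65) CPM in stressed libraries, a difference of 0.48 ± 0.19 (SE, adjusted p = 0.997). Stressed libraries held the highest value of both genes and control libraries the lowest, with most values shared, and Col20a1 followed at 0.33 ± 0.16 (SE, adjusted p = 0.997).

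XX against XY mice, 23 against 25 animals, compared the sex chromosome complement across both gonad types, and again no collagen chain gene was called by edgeR, in a comparison that called 1.12% of all genes in PFC and 0.584% in NAc. In the PFC 8 of 43 had an unadjusted p below 0.05 (18.6%, against 11.6% of all genes), 7 of them lower in XX; DESeq2 and limma-voom each gave 10, with none called. Col6a3 read 1.66 to 2.97 (median 2.34) CPM in XX and 1.16 to 3.17 (median 1.78) CPM in XY libraries, a difference of 0.23 ± 0.08 (SE, adjusted p = 0.18). Its XX values sat higher within a shared range, and the difference was 0.21, 0.34 and 0.24 within cohorts 1, 2 and 3. With 2 surrogate variables in the fit it was called, at 0.33 (adjusted p = 0.0228). Col4a1 gave -0.14 ± 0.05 (SE, adjusted p = 0.183). Col1a1 read 2.21 to 7.16 (median 4.55) CPM in XX and 2.51 to 11.4 (median 5.13) CPM in XY libraries, a difference of -0.36 ± 0.14 (SE, adjusted p = 0.243). The upper end of the XY range set it apart, while the lower ends were alike.

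Meningeal and fibroblast markers lay in the same direction as Col1a1 in this comparison: all 16 were below 0 in XX minus XY in PFC, with none called and a median of -0.25. Their summed level was 120.7 ± 29.8 CPM in XX and 134 ± 50.2 CPM in XY libraries (SD). With the meninges score as a covariate the Col1a1 difference was -0.13 (adjusted p = 0.687), and Col1a1 was not called with or without it. What part these markers had in the difference was not tested. The summed markers reached their highest value, 311 CPM, in XY- Stress replicate 15.

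In the NAc 3 of 43 had an unadjusted p below 0.05 for XX against XY (6.98%, against 5.97% of all genes; 3 by DESeq2, which called 1, and 3 by limma-voom, which called none). Col26a1 read 1.47 to 4.38 (median 2.57) CPM in XX and 1.23 to 2.88 (median 1.91) CPM in XY libraries, a difference of 0.45 ± 0.13 (SE, adjusted p = 0.124). Col26a1 encodes a collagen of the extracellular matrix first found in gonads, and DESeq2 called it (adjusted p = 0.0403). The highest XX libraries exceeded all XY libraries, and the rest overlapped. The difference was 0.76 within cohort 1, where it was called (adjusted p = 0.00639), 0.24 within cohort 2 and 0.37 within cohort 3. Residuals of Col26a1 were related to the GC dependence of the library in NAc with r = 0.57 (rho = 0.55, adjusted permutation p = 0.00106; 0.60 without the 2 farthest libraries; 0.62, 0.62 and 0.48 within the cohorts). With that slope as a covariate the difference was 0.35 (adjusted p = 0.252). What part GC dependence had in the difference was not tested. Col14a1 read 1.83 to 4.95 (median 3.01) CPM in XX and 1.28 to 3.50 (median 2.37) CPM in XY libraries, a difference of 0.35 ± 0.10 (SE, adjusted p = 0.173). Col14a1 is a FACIT of fibril surfaces, and its difference was 0.36, 0.35 and 0.35 within the 3 cohorts. Leaving out XX Stress replicate 43 or XX Control replicate 50 brought Col26a1, and leaving out XY- Control replicate 13 brought Col14a1, past the threshold. Col4a3 followed with -0.39 ± 0.16 (SE, adjusted p = 0.704).

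The X-linked members Col4a5 and Col4a6, whose starts face away from each other across 1308 bases, were not called in XX against XY. Col4a5 (chrX:141475385-141689234, plus strand) read 2.63 to 4.75 (median 3.72) CPM in XX and 2.29 to 4.79 (median 3.78) CPM in XY PFC libraries. Its differences were -0.04 ± 0.07 (adjusted p = 0.903) in PFC and 0.10 ± 0.08 (adjusted p = 0.93) in NAc. Col4a6 (chrX:141165403-141474076, minus strand) read 0.646 to 1.85 (median 1.17) and 0.591 to 2.45 (median 1.14) CPM in PFC and differed by -0.06 ± 0.11 (adjusted p = 0.914) there and by -0.26 ± 0.15 (adjusted p = 0.902) in NAc. XX and XY libraries shared nearly their whole range for both genes in PFC. The signs of the 4 estimates each turned under at least 1 other setting.

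Mice with testes and mice with ovaries, 24 each, were compared across both chromosome complements, and no collagen chain gene was called by edgeR, DESeq2 or limma-voom, against 0.0467% of all genes in PFC and 0.0102% in NAc by edgeR. At an unadjusted p below 0.05 stood 3 of 43 in PFC (6.98%, against 6.74%; 3 by DESeq2 and 5 by limma-voom) and 6 of 43 in NAc (13.95%, against 9.28%; 8 and 4). All of those counted by edgeR were lower with testes. In the PFC Col13a1 gave -0.21 ± 0.09 (SE, adjusted p = 0.634), Col4a5 -0.14 ± 0.07 (SE, adjusted p = 0.699) and Col1a1 -0.29 ± 0.13 (SE, adjusted p = 0.701). The same 16 meningeal markers were all below 0 here too (median -0.23, none called; summed level 117 ± 32.5 CPM with testes and 138 ± 47.96 CPM with ovaries). With their score as a covariate the differences were -0.14, -0.07 and -0.08. All 12 microglia markers (median -0.10) and all 6 blood cell markers (median -0.36) were below 0 as well, with none called. What part any of these markers had in the collagen estimates was not tested.

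In the NAc the cartilage chain Col2a1 read 1.07 to 3.36 (median 1.70) CPM with ovaries and 0.611 to 2.40 (median 1.31) CPM with testes, a difference of -0.38 ± 0.13 (SE, adjusted p = 0.452). Col4a1 gave -0.16 ± 0.07 (SE, adjusted p = 0.523) and Col6a6 -0.40 ± 0.18 (SE, adjusted p = 0.524). Within cohort 2 the signs of Col2a1 (0.06) and Col4a1 (0.13) were turned. Of the 43 estimates, 29 were below 0 (median -0.09, against 0.002 over all genes), among them all 11 fibrillar chains, 1 of which had an unadjusted p below 0.05. In the same comparison 11 of 12 microglia markers were below 0 (median -0.14) and 5 of 6 blood cell markers (median -0.39), while all 8 ependymal markers were above 0 (median 0.20), with none called. Microglia markers summed to 350 to 650 CPM with ovaries and 374 to 710 CPM with testes. Blood cell markers summed to 176 to 359 and 236 to 335 CPM, and ependymal markers to 11.8 to 64.9 and 14.9 to 79.1 CPM. No marker of these lists was at 0, and their part in the collagen estimates was not tested.

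**Figure D3:**
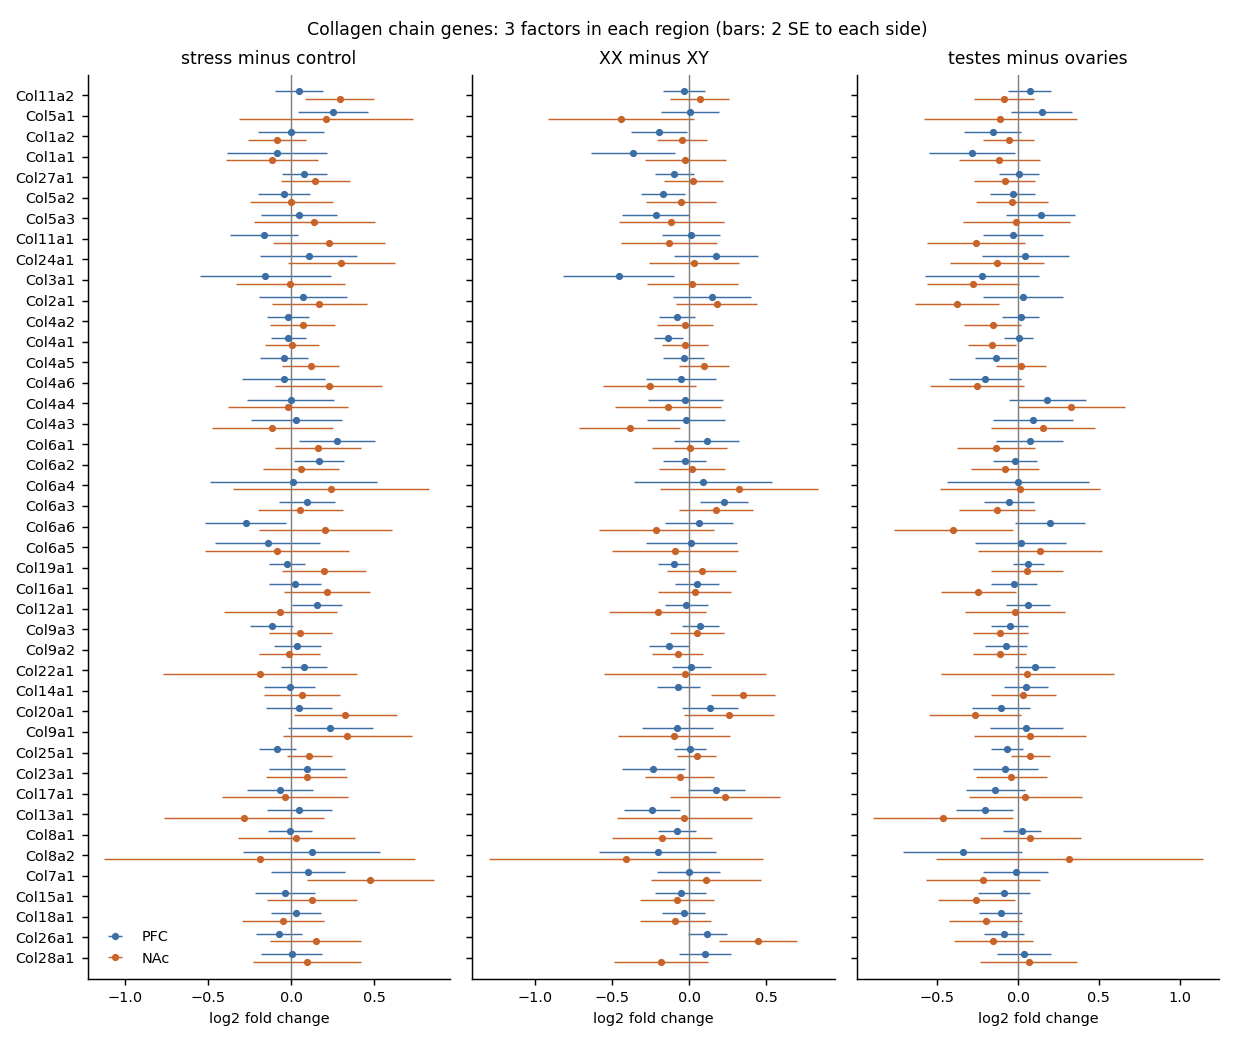
Log2 fold changes of the 43 collagen chain genes for stress minus control, XX minus XY and testes minus ovaries, in PFC and in NAc, one point per gene with bars of 2 SE. The estimates lie around 0 in all 6 comparisons, between -0.46 and 0.48, and none was called.

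No collagen chain gene was called by edgeR, DESeq2 or limma-voom in the interactions of stress, chromosomes and gonads, nor was any of all genes called by edgeR (0% in each). At an unadjusted p below 0.05 the interaction of stress with chromosomes gave 0 of 43 (3.14% of all genes; 1 by DESeq2 and 1 by limma-voom) in PFC and 0 of 43 (3.02% of all genes; 1 by DESeq2 and 3 by limma-voom) in NAc. The interaction of stress with gonads gave 7 of 43 (6.72% of all genes; 7 by DESeq2 and 6 by limma-voom) in PFC and 4 of 43 (2.94% of all genes; 4 by DESeq2 and 3 by limma-voom) in NAc. That of chromosomes with gonads gave 1 of 43 (4.35% of all genes; 1 by DESeq2 and 2 by limma-voom) and 1 of 43 (2.84% of all genes; 1 by DESeq2 and 2 by limma-voom). The smallest p for stress with gonads in PFC was that of the neuronal chain Col25a1, whose stress difference with testes minus that with ovaries was -0.28 ± 0.10 (adjusted p = 0.623). In NAc the corresponding member was Col1a2 at -0.39 ± 0.16 (adjusted p = 1). For stress with chromosomes the members with the smallest p were Col15a1 at -0.32 ± 0.16 (adjusted p = 1) in PFC and Col19a1 at 0.42 ± 0.22 (adjusted p = 0.987) in NAc. For chromosomes with gonads they were Col4a4 at 0.52 ± 0.25 (adjusted p = 0.994) and Col28a1 at 0.69 ± 0.31 (adjusted p = 1). The median SE of these interactions was 0.18 in PFC and 0.26 in NAc for stress with gonads.

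Within single genotypes, stress also gave no call by any of the 3 tools among collagen chain genes, and by edgeR 0% of all genes. Unadjusted p-values below 0.05 in XX mice numbered 4 of 43 (3.02% of all genes; 5 by DESeq2 and 6 by limma-voom) in PFC and 0 of 43 (3.84% of all genes; 0 by DESeq2 and 1 by limma-voom) in NAc. The leading members there were Col6a2 at 0.37 ± 0.15 (adjusted p = 1) in PFC and Col1a1 at -0.46 ± 0.27 (adjusted p = 0.967) in NAc. XXSry mice gave 1 of 43 (5.8% of all genes; 1 by DESeq2 and 1 by limma-voom) and 1 of 43 (2.49% of all genes; 1 by DESeq2 and 3 by limma-voom). They were led by Col26a1 at -0.25 ± 0.12 (adjusted p = 0.855) in PFC and, in NAc, by the fibrillar chain Col24a1 at 0.85 ± 0.29 (adjusted p = 1). XY- mice gave 4 of 43 (9.13% of all genes; 6 by DESeq2 and 5 by limma-voom) and 1 of 43 (4.45% of all genes; 1 by DESeq2 and 2 by limma-voom), led by Col6a3 at 0.39 ± 0.15 (adjusted p = 0.393) and Col4a6 at 0.60 ± 0.28 (adjusted p = 1). XY-Sry mice gave 1 of 43 (6.3% of all genes; 1 by DESeq2 and 1 by limma-voom) and 4 of 43 (6.2% of all genes; 4 by DESeq2 and 3 by limma-voom). Their leading members were Col25a1 at -0.29 ± 0.10 (adjusted p = 0.739) in PFC and Col11a2 at 0.51 ± 0.19 (adjusted p = 0.797) in NAc.

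Whether a factor acted differently in NAc than in PFC was tested with interactions in the paired fit, in which no collagen chain gene was called by edgeR or limma-voom. Of all genes, edgeR called 0% for stress, 0.0151% for chromosomes and 0% for gonads. Unadjusted p-values below 0.05 numbered 3 of 43 (against 4.97% of all genes; 4 by limma-voom), 2 of 43 (against 4.79% of all genes; 4 by limma-voom) and 4 of 43 (against 5.25% of all genes; 4 by limma-voom). Col14a1 had the smallest p for chromosomes, with a larger XX minus XY difference in NAc by 0.42 ± 0.13 (adjusted p = 0.942). For stress and gonads these were Col25a1 at 0.19 ± 0.08 (adjusted p = 0.963) and Col6a6 at -0.68 ± 0.23 (adjusted p = 0.844).

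Chains that assemble into one trimer, and the fibroblast pair Col1a1 and Col3a1, which do not, were then followed across the 48 libraries of a region, as residuals of log2(CPM + 0.1) after group and cohort; 24 relations were computed, 12 of which had an adjusted permutation p below 0.05, and 1e-05 is the smallest p that 100000 permutations can give. Col4a1 and Col4a2, which are transcribed away from each other from genes that overlap by 22 bases, were the closest pair. Their Pearson's r was 0.92 (permutation p = 1e-05, adjusted p = 3.43e-05), Spearman's rho was 0.88 (permutation p = 1e-05, adjusted p = 3.00e-05) in PFC, and r was 0.91 without the 2 libraries farthest from the median, and 0.96, 0.82 and 0.93 within cohorts 1, 2 and 3. In the NAc r was 0.90 (permutation p = 1e-05, adjusted p = 3.43e-05), Spearman's rho was 0.86 (permutation p = 1e-05, adjusted p = 3.00e-05), and r was 0.88 without the 2 libraries farthest from the median, and 0.80, 0.93 and 0.96 within cohorts 1, 2 and 3. Col4a2 ranked 1 in likeness to Col4a1 among all other genes tested (19291 in PFC, 19683 in NAc).

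Fibroblast collagens ran together in PFC and less closely in NAc, a difference between regions that was not tested. For Col1a1 with Col1a2 in PFC r was 0.84 (permutation p = 1e-05, adjusted p = 3.43e-05), Spearman's rho was 0.87 (permutation p = 1e-05, adjusted p = 3.00e-05), and r was 0.81 without the 2 libraries farthest from the median, and 0.89, 0.77 and 0.76 within cohorts 1, 2 and 3. Among all genes Col1a2 and Col3a1 ranked 1 and 2 in likeness to Col1a1 in PFC, but 1902 and 5222 in NAc. In the NAc r was 0.49 (permutation p = 0.00042, adjusted p = 0.00112), Spearman's rho was 0.54 (permutation p = 0.00015, adjusted p = 0.0004), and r was 0.49 without the 2 libraries farthest from the median, and 0.48, 0.28 and 0.73 within cohorts 1, 2 and 3. Col1a1 with Col3a1 gave r = 0.84 in PFC (rho = 0.81, adjusted permutation p = 3.43e-05; 0.92, 0.58 and 0.76 within the cohorts) and 0.24 in NAc (rho = 0.32, adjusted permutation p = 0.172 for r and 0.0489 for rho).

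Col6a1 and Col6a2 gave r = 0.72 in PFC (rho = 0.66, adjusted permutation p = 3.43e-05) and 0.71 in NAc (rho = 0.72, adjusted permutation p = 3.43e-05), although their levels differed in opposite directions between regions. Within cohorts 1, 2 and 3 this was 0.66, 0.64 and 0.84 in PFC and 0.61, 0.92 and 0.55 in NAc, and Col6a2 ranked 5 in likeness to Col6a1 in PFC and 640 in NAc. Col6a3, the further chain of that trimer, gave r = 0.14 in PFC (rho = 0.10, adjusted permutation p = 0.408) and 0.25 in NAc (rho = 0.34, adjusted permutation p = 0.153) with Col6a1, and the adjusted p of rho in NAc was 0.0346. The collagen XI chains Col11a1 and Col11a2 gave r = 0.66 in PFC (rho = 0.65, adjusted permutation p = 3.43e-05) and 0.58 in NAc (rho = 0.61, adjusted permutation p = 6.00e-05), with 0.66, 0.75 and 0.61 within the cohorts in PFC and 0.40, 0.77 and 0.62 in NAc. Col11a2 ranked 97 in likeness to Col11a1 in PFC and 647 in NAc. For the X-linked neighbours Col4a5 and Col4a6 these were r = 0.48 in PFC (rho = 0.49, adjusted permutation p = 0.00134) and 0.45 in NAc (rho = 0.47, adjusted permutation p = 0.00305). The PFC relation of this pair did not hold within every cohort (0.68, -0.03 and 0.25 within cohorts 1, 2 and 3), and in NAc it was 0.51, 0.40 and 0.35; Col4a6 ranked 84 and 826 in likeness to Col4a5. Col5a1 with Col5a2 gave r = 0.22 in PFC (rho = 0.23, adjusted permutation p = 0.2) and 0.42 in NAc (rho = 0.46, adjusted permutation p = 0.00568; 0.26, 0.67 and 0.51 within the cohorts; rank 1537). Col8a1 with Col8a2 gave r = 0.16 in PFC (rho = 0.16, adjusted permutation p = 0.343) and -0.14 in NAc (rho = -0.12, adjusted permutation p = 0.408), and no relation of Col9a1 with Col9a2 or Col9a3 had an adjusted p below 0.05.

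Col4a3 and Col4a4 also lie head to head, with starts that face away across 71 bases at chr1:82586850-82586920. Their residuals gave r = -0.07 in PFC (rho = -0.02, adjusted permutation p = 0.719) and -0.18 in NAc (rho = -0.13, adjusted permutation p = 0.307). Both are near the floor of the family's levels, at 0.252 to 0.734 and 0.226 to 0.906 CPM in PFC. The stretch between them is printed from RefSeq on the minus strand, the strand of Col4a4, to show how short it is; none of the 3 motifs matched in it.
Col4a4 to Col4a3: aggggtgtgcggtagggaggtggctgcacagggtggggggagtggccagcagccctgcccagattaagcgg

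Over all 903 pairs of collagen chain genes the median r was 0.13 in PFC and 0.21 in NAc, and 98 and 185 pairs were above 0.5. Pairs within a class had medians of 0.14 and 0.23, and pairs across classes 0.12 and 0.21. Some of the closest pairs were no partners of one trimer. The FACIT gene Col16a1 had r = 0.84 with Col4a2 in PFC and 0.93 in NAc, and Col27a1 had 0.91 with Col6a1 in NAc. These values are descriptions across libraries that share depth and GC dependence, and carry no test. Medians and counts over pairs of all genes were not computed, so these have no background to be read against.

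**Figure D4:**
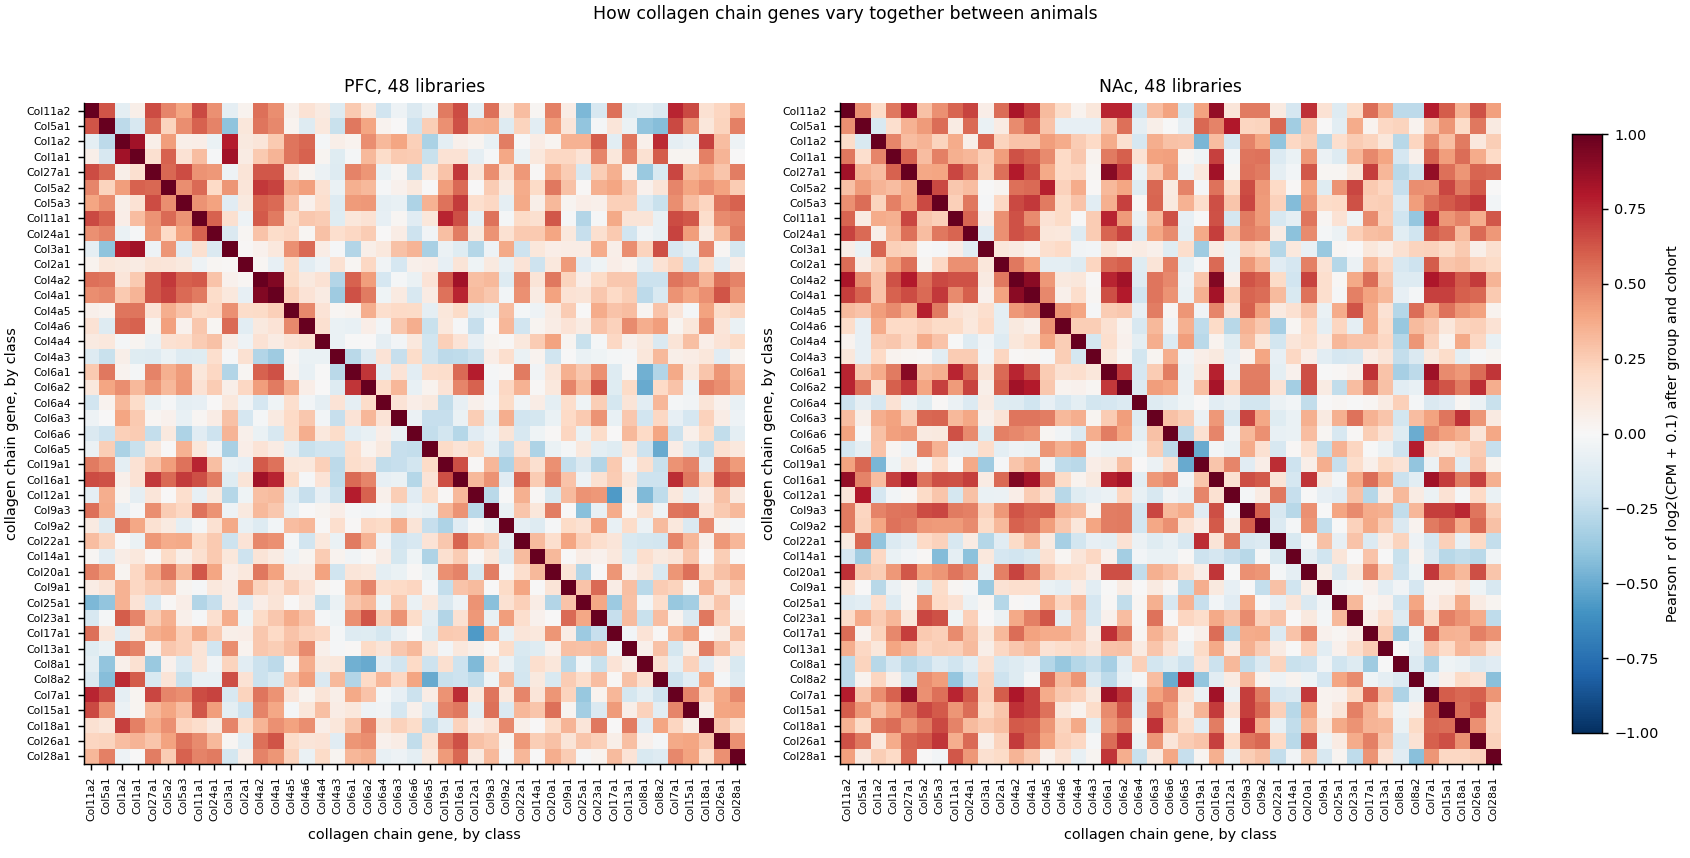
Pearson's r between all pairs of the 43 collagen chain genes over 48 libraries, as residuals of log2(CPM + 0.1) after group and cohort, for the PFC and the NAc, with genes in order of class; colour runs from negative to positive r. The median pair is at 0.13 in PFC and 0.21 in NAc, and the NAc panel holds 185 pairs above 0.5 against 98 in PFC. The same values over pairs of all genes were not computed.

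The same residuals were set against the summed levels of 13 marker lists and against the GC dependence and total count of each library. These were 1290 relations in all, chosen after the data were seen, and no marker list contains a collagen chain gene. Such relations were computed for collagen chain genes only. The counts that follow therefore have no share over all genes beside them and cannot be read as particular to collagens. In the PFC pericyte and smooth muscle markers had a positive adjusted relation with 12 of the 43 and a negative one with 1. Choroid plexus markers had 8 positive relations and endothelial markers 5, with 0 negative for either. Oligodendrocyte markers had 7 negative relations and 0 positive. The meningeal and fibroblast markers had a positive adjusted relation with 11 of the 43 in PFC and a negative one with 0. Col1a2 led with r = 0.86 (rho = 0.85, adjusted permutation p = 0.000287; 0.85 without the 2 farthest libraries; 0.89, 0.78 and 0.79 within the cohorts). Col8a2 gave r = 0.79 (rho = 0.75, adjusted permutation p = 0.000287; 0.75 without the 2 farthest libraries; 0.87, 0.50 and 0.76 within the cohorts), and Col3a1 r = 0.77 (rho = 0.79, adjusted permutation p = 0.000287; 0.77 without the 2 farthest libraries; 0.80, 0.80 and 0.63 within the cohorts). Col8a2 was highest in PFC in XY- Stress replicate 15, the library with the highest summed meningeal markers.

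In the NAc, ependymal markers had a positive adjusted relation with 7 members and a negative one with 4. They were related to Col8a2 with r = 0.94 (rho = 0.94, adjusted permutation p = 0.000287; 0.92 without the 2 farthest libraries; 0.90, 0.94 and 0.99 within the cohorts). Col6a5 gave r = 0.85 (rho = 0.84, adjusted permutation p = 0.000287; 0.81 without the 2 farthest libraries; 0.78, 0.95 and 0.92 within the cohorts). The summed ependymal markers ran from 11.8 to 79.1 CPM there, against 9.88 to 15.1 CPM in PFC, and were highest in XY-Sry Stress replicate 8, which held the highest Col6a5 and Col8a2. Cortical excitatory neuron markers ran from 462 to 1709 CPM in NAc. They were related to Col19a1 with r = 0.76 (rho = 0.75, adjusted permutation p = 0.000287; 0.72 without the 2 farthest libraries; 0.81, 0.49 and 0.79 within the cohorts). For Col22a1 they gave r = 0.73 (rho = 0.73, adjusted permutation p = 0.000287; 0.69 without the 2 farthest libraries; 0.78, 0.53 and 0.74 within the cohorts). Col19a1 and Col22a1 were 2 of the 5 FACIT genes called lower in NAc than in PFC.

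GC dependence of the NAc libraries had a positive adjusted relation with 22 collagen chain genes, against 15 in PFC. The slope was computed over expressed genes, collagen chain genes among them. Their median GC content was 55.2%, against 49.3% over all genes, so a positive relation is in part built into the measure. Col6a2, with a GC content of 55.2%, gave r = 0.77 (rho = 0.80, adjusted permutation p = 0.000287; 0.75 without the 2 farthest libraries; 0.73, 0.89 and 0.70 within the cohorts). Col4a2, at 60.6% GC, gave r = 0.76 (rho = 0.78, adjusted permutation p = 0.000287; 0.77 without the 2 farthest libraries; 0.77, 0.76 and 0.75 within the cohorts). Astrocyte markers in NAc had a negative adjusted relation with 24 members, the strongest that of Col4a2 with r = -0.80 (rho = -0.83, adjusted permutation p = 0.000287; -0.82 without the 2 farthest libraries; -0.77, -0.75 and -0.89 within the cohorts). Negative relations in NAc also numbered 18 for oligodendrocyte precursor markers, 14 for blood cell markers and 11 for oligodendrocyte markers. Positive ones for these lists numbered 0, 1 and 0. What part these measures had in the levels of collagen chain genes was not tested.

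**Figure D5:**
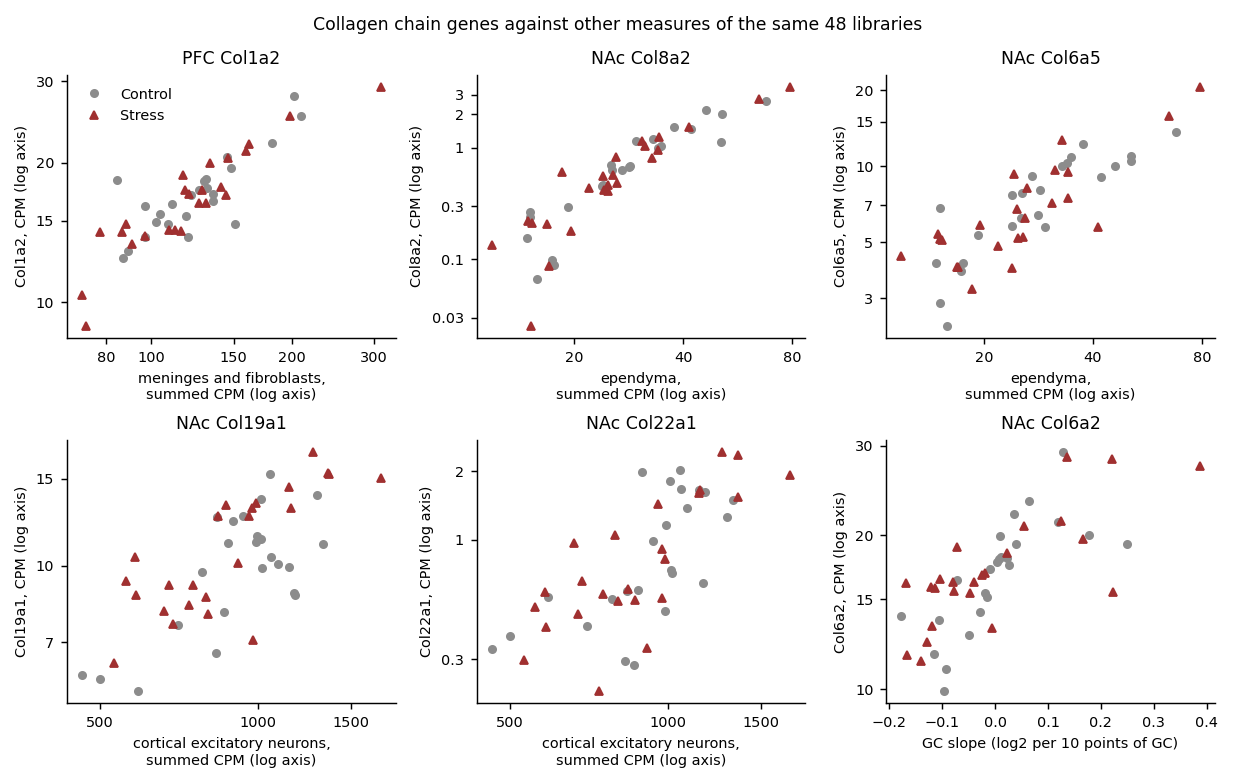
CPM of a collagen chain gene (vertical log axis) against a measure of the same library in 6 panels, one point per library (n = 48 in each), with Control as circles and Stress as triangles. The horizontal axis is the summed CPM of a marker list (log axis), or, in the Col6a2 panel, the GC slope of the library in log2 per 10 percentage points of GC. Levels rise with the measure in each panel, as for Col1a2 with meningeal markers in PFC (r of residuals 0.86) and Col8a2 with ependymal markers in NAc (r of residuals 0.94).

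Genes that process, bind or degrade collagen were listed from 5 groups (79 listed, 74 tested in PFC and 75 in NAc). Between regions 69 of 75 were called (92%; 30 higher and 39 lower in NAc), again near the background of 85.9%. Of those that cleave propeptides or cross-link chains, the procollagen protease Adamts3 was higher in NAc by 2.04 (adjusted p = 4.71e-37), whereas Pcolce, which enhances cleavage of procollagen, the protease Bmp1 and the transglutaminase Tgm2 were lower, with -1.56, -1.15 and -0.47. Among the genes listed here as collagen receptors, Ddr2 (-1.41), Mrc2 (-1.40) and Itga3 (-0.66) were lower and Itga11 (1.19) higher. Among genes of modification and folding, Colgalt2 (-0.87), P3h2 (-0.79) and Sec23a (-0.41) were lower and Fkbp14 (0.47) higher. Of basement membrane partners, the laminin chain Lama4 (-0.88) and Vwa1 (-0.88) were lower and Sparc (0.86), which binds collagen, higher. The collagenolytic Ctsk (-1.21), Mmp9 (-1.16) and Ctsl (-0.20) were lower and the inhibitor Timp3 (0.68) higher; all of these were called.

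For XX against XY in PFC, 4 of 74 such genes were called, all lower in XX (5.41%, against 1.12% of all genes), while no collagen chain gene was. At an unadjusted p below 0.05 stood 19 of 74, against 11.6% of all genes. They were the procollagen proteases Adamts2, with a log2 difference of -0.22 (adjusted p = 0.00364), and Adamts3, with -0.12 (adjusted p = 0.0313), the inhibitory collagen receptor Lair1, with -0.20 (adjusted p = 0.00543), and Timp3, with -0.12 (adjusted p = 0.0418). The number called was 0 within cohort 2 and within cohort 3, and ran from 2 to 7 as single libraries were left out. Of the 12 microglia markers, 9 were below 0 in the same comparison (median -0.09), with 2 called lower (Ctss and C1qc) and 1 called higher (Fcrls). Their summed level ran from 421 to 526.5 CPM in XX and from 416 to 724 CPM in XY libraries, with none at 0; all 16 meningeal markers were below 0 too. What part these had in the 4 calls was not tested. None was called for stress or gonads in PFC or for any of the 3 factors in NAc by edgeR; at an unadjusted p below 0.05 stood 4 and 12 of 74 for stress and gonads in PFC (5.73% and 6.74% of all genes), and 2, 5 and 11 of 75 for stress, chromosomes and gonads in NAc (4.59%, 5.97% and 9.28% of all genes). DESeq2 and limma-voom called none in these 5 comparisons either.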

How the data were processed

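PolyA RNA from tissue punches was sequenced from 48 mice per region (Illumina TruSeq mRNA libraries from 100 ng of RNA with 15 cycles of amplification, a NextSeq instrument, paired reads of 50 bases, per the labels). The authors deposited raw counts per gene, 1 table per region; per the submitters' processing notes the build was GRCm38 (mm10) and the tools included HISAT2 2.2.0 and Trimmomatic 0.38, besides FastQC 0.11.9, DESeq2 and edgeR; these notes assign none of them a role. How reads were assigned to genes, with which strand setting and gene filter, was not given in the sources used here. Library totals lie above the 45 M reads stated in the labels. Counts of members that overlap a gene on the opposite strand (Col4a1, Col4a2, Col4a3, Col5a1, Col9a3 and Col18a1) or the same strand (Col20a1 and Col25a1) could hold reads of that gene.

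Counts were normalized by the trimmed mean of M values and tested with edgeR 4.0.16 (quasi-likelihood, filterByExpr), with 8 group means and cohort per region; regions were compared within animals (animal as a block, with region by group and region by cohort). Replicate numbers in the titles name the animal, so the same number in both regions is 1 animal. Residuals of same-numbered libraries over 12039 genes correlated with a median r of 0.10, and 24 of 48 exceeded 0.1. Of the 48 PFC libraries, 9 correlated best with the NAc library of their own number. The r between libraries of different animals is not given here. Animals are the replicates, and no libraries of a group agree within sampling noise (lowest chi-square per degree of freedom 6.62 in the PFC and 14.3 in the NAc). Alternatives were RLE normalization, no filter, a stricter filter (1 CPM in 6 libraries), DESeq2 1.42.0, limma-voom (limma 3.58.1), 2 surrogate variables (sva 3.50.0), a meninges score as covariate, each cohort alone, each library left out and no replicate block, with GC slope as covariate added after seeing the data. The fit was tested on simulated data. Tables were made with R 4.3.3 and Python 3.11.15. The genes, marker lists and pathway lists were chosen with earlier results of these data known. Named for stress, chromosomes and gonads are all called members, or the 3 with the smallest p where fewer were called; for regions the 10 highest and 10 lowest called with their partner chains; for interactions and single genotypes the called or the 1 with the smallest p; for other lists up to 4 by p (1 such gene is not reported here); other members are named for completeness.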

Additional observations from a re-analysis of the deposited data

Results flagged for a closer look

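Among 128 groups of libraries examined for members with wide spread, chosen after their values were seen, 14 held 1 library far from the rest of its group. The limit used is nominally passed by about 1 in 20 groups. That rate does not hold for members chosen for their spread, so the 14 cannot be read against it. In the PFC the microfilament chain Col6a1 stood at 90.7 CPM in XY-Sry Stress replicate 24 (32.2 to 48.4 in the others). The vessel wall chain Col8a2 was at 2.79 CPM in XY- Control replicate 13 (0.905 to 1.67 in the others) and 4.18 CPM in XY- Stress replicate 15 (0.613 to 1.56 in the others). The fibroblast chain Col3a1 reached 4.13 CPM in XX Stress replicate 17 (1.93 to 2.61 in the others), 4.80 CPM in XXSry Control replicate 3 (1.60 to 2.23 in the others) and 6.56 CPM in XY-Sry Control replicate 38 (1.60 to 3.03 in the others). The neuronal chain Col25a1 read 57.9 CPM in XX Control replicate 2 (78.6 to 85.6 in the others) and 95.8 CPM in XY-Sry Control replicate 33 (78.2 to 83.4 in the others), the first being lower and the second higher than its group.

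In the NAc Col6a5 stood at 15.9 CPM in XY- Stress replicate 26 (3.98 to 8.19 in the others) and 20.7 CPM in XY-Sry Stress replicate 8 (3.95 to 7.45 in the others), and Col8a2 at 2.76 CPM in XY- Stress replicate 26 (0.0874 to 0.824 in the others) and 3.55 CPM in XY-Sry Stress replicate 8 (0.211 to 0.964 in the others). The same 2 libraries were thus high for both genes, and summed ependymal markers were highest in XY-Sry Stress replicate 8; the part of these cells was not tested. Col3a1 was at 1.67 CPM in XXSry Control replicate 39 (0.860 to 1.12 in the others) and Col25a1 at 104 CPM in XX Control replicate 35 (79.5 to 85.3 in the others).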

How the results depend on the processing

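No member was called for stress, for the interactions or for stress within a genotype in either region under any setting run. Exceptions elsewhere were 1 member for XX minus XY in the PFC with 2 surrogate variables (Col6a3), 1 for testes minus ovaries in the PFC within cohort 2 (Col5a1), and in the NAc 1 for XX minus XY with DESeq2, 1 within cohort 1 and 0 to 1 as single libraries were left out. For pathway genes in XX minus XY, the PFC gave 7 with DESeq2, 0 within cohort 2, 0 within cohort 3 and 2 to 7 with single libraries left out, against 4; the NAc gave 1 with 2 surrogate variables and 1 with GC slope as covariate, against 0. Fewer animals entered the fits within cohorts, and few of cohort 2 were stressed and few of cohort 3 were controls. The absence of calls for stress within these cohorts therefore carries little weight. The cause of the exceptions was otherwise not tested.

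Reversed signs in XX minus XY were 0.016, 0.038 and 0.061 for Col4a5 in the PFC (2 surrogate variables, meninges score, cohort 3) and -0.0069 in the NAc (cohort 3). Col4a6 turned to 0.089, 0.086 and 0.29 in the PFC under the same 3 settings and ran from -0.12 to 0.023 there as single libraries were left out (0.023 without XY- Stress replicate 15), and was 0.21 in the NAc within cohort 2. For testes minus ovaries in the NAc, Col2a1 was 0.063 and Col4a1 0.13 within cohort 2. Of 435 values of named members under other settings 420 kept direction and side of the threshold, as did 1244 of 1248 with 1 library left out.

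Without the replicate block (animals unpaired) 36 members were called between regions, as with it; cohorts alone gave 33, 30 and 33, and the stricter filter 35. The block changed no other call. Members at low levels, such as Col4a3, Col4a4 and Col6a6, and Col8a2 and Col13a1 in the NAc (lowest count 2 in each), rest on few counts.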
